A study of Homo sapiens with 2 samples.

Results

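The dual specificity phosphatases (DUSP) that act on mitogen-activated protein (MAP) kinases were followed in H1299 cells with and without p53. The set comprised 10 genes, DUSP1, DUSP2, DUSP4, DUSP5, DUSP6, DUSP7, DUSP8, DUSP10, DUSP14 and DUSP16, chosen by gene symbol out of 18417 genes, and each was read by 1 probe set. One group was H1299 given p53 and the other was H1299 of a negative control, with 1 Affymetrix array each. H1299 is an established human cell line from a non-small cell lung carcinoma and has no p53 of its own, so both groups share that loss. The way p53 was introduced, the time after it and the nature of the negative control are not stated in the labels.

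MAP kinases (ERK, JNK and p38) are switched on when an upstream kinase phosphorylates a threonine and a tyrosine in their activation loop. Dual specificity MAP kinase phosphatases remove both phosphates and so end the signal. Several of these genes are themselves transcribed in response to MAP kinase activity, which makes them feedback inhibitors as well as commonly used readouts of the pathway.

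Values are log2 intensities, and each difference is the log2 intensity with p53 minus that in the negative control. With 1 array per group there is no replicate error and no test, so every difference describes these 2 arrays. A gene was called higher or lower at a 2-fold difference, a rule of size. Genes were kept where the brighter of both arrays reached 7.38, the median of all values, which held for 8 of the 10 phosphatase genes and for 11436 genes in all. The labels were checked on 2 known p53 targets, and both were higher in the array labelled p53. CDKN1A, which encodes the cell cycle inhibitor p21, read 12.66 with p53 and 9.18 in control cells, and MDM2, the p53 ubiquitin ligase gene, at 13.59 with p53 and 10.87 in control cells. KRT8, KRT18 and VIM were above the filter, whereas EPCAM, CDH1 and KRT19 lay below it with identical values. Of 22 listed epithelial, fibroblast, endothelial and haematopoietic markers 21 were measured, and their differences ran from -0.38 (CD68) to 0.32 (KRT8). Of the 21, 17 were equal in both arrays. Above the filter were CD68, of the haematopoietic list, at 11.01 with p53 and 11.40 in control cells, and COL1A1, of the fibroblast list, at 8.14 in both, while PTPRC and the 4 endothelial markers were below it.

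Among the phosphatases, DUSP14 was higher with p53 and DUSP6 was lower, each by more than 2-fold. DUSP16 and DUSP1 were higher by less than 2-fold, DUSP5 and DUSP7 differed little, and DUSP2, DUSP4, DUSP8 and DUSP10 held the same value in both arrays. Of the 8 kept phosphatase genes, 1 was thus called higher, against 8.21% of all kept genes, and 1 was called lower, against 5.79%. Both genes were above the filter level in each array. A single gene is 12.5% of 8, so these counts do not set the family apart from the background. At 1.5-fold, 3 members were higher (DUSP14, DUSP16 and DUSP1), against 14.4% of kept genes, and 1 was lower, against 15.5%. The median difference of the 10 members was 0.00, as was that of all 18417 genes. Over the 6 members whose values were not equal the median was 0.49, against -0.09 over the kept genes that were not equal. These 6 ran from -1.08 (DUSP6) to 1.53 (DUSP14), and the 0.49 falls between DUSP5 (0.17) and DUSP1 (0.82). It was not read as a shift of the family.

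**Figure D1:**
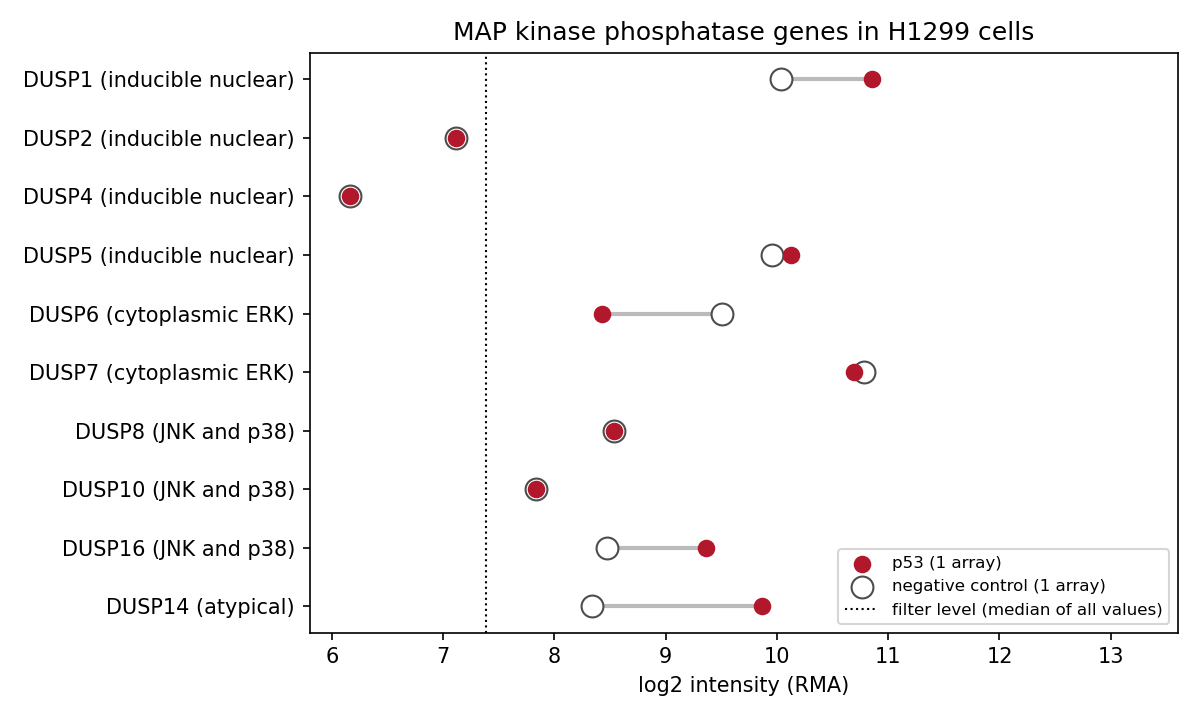
Log2 intensity (horizontal axis) of the 10 phosphatase genes with p53 (filled red) and in the negative control (open), 1 array each, with no error bars because there are no replicates. The points part furthest for DUSP14 (9.87 with p53, 8.34 in control cells) and DUSP6 (8.43 with p53, 9.51 in control cells) and coincide for DUSP2, DUSP4, DUSP8 and DUSP10; levels of different genes come from different probes and cannot be ranked against each other.

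DUSP14, an atypical family member that consists of little more than the catalytic domain, had the largest difference of the family. Its log2 intensity was 9.87 with p53 and 8.34 in the negative control, a difference of 1.53 and a 2.89-fold higher level. Of the 11436 kept genes, 490 (4.28%) had a difference at least as high. Among the 3108 other genes whose mean level lay within 0.5 of that of DUSP14, 7.21% differed by as much in either direction. The difference ran from 1.44 to 1.61 over the processing alternatives that changed the values.

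DUSP6 encodes MKP-3, the cytoplasmic phosphatase with a strong preference for ERK, and its transcription is a standard readout of ERK activity. It was the 1 member called lower, at 8.43 with p53 and 9.51 in control cells. The difference was -1.08, so that the control level was 2.12-fold that with p53. Of the kept genes, 528 (4.62%) had a difference at least as low. Among 3184 genes of like level, 13.1% differed by as much in either direction. In RNA of a whole culture, fewer cells of a kind and less of a transcript per cell cannot be told apart. DUSP7, the closely related ERK phosphatase of the cytoplasm, read 10.69 with p53 and 10.78 in control cells, a difference of -0.09.

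The windows around the start sites are shown for the 4 members past 1.5-fold, the ones with the largest differences. Each covers 250 bases before to 50 bases after the start, from RefSeq on GRCh38.p14, and is written 5′ to 3′ on the strand of the gene. Capitals mark matches, on either strand, to the GC box GGGCGG, the cAMP response element (CRE) TGACGTCA, the CCAAT box CCAAT, the E-box CACGTG, the TATA box TATAAA, the AP-1 site TGANTCA and the p53 half-site consensus. No matches overlapped in these windows, although adjacent matches join into 1 run of capitals.
DUSP14, higher with p53, chr17:37489641-37489940, plus strand: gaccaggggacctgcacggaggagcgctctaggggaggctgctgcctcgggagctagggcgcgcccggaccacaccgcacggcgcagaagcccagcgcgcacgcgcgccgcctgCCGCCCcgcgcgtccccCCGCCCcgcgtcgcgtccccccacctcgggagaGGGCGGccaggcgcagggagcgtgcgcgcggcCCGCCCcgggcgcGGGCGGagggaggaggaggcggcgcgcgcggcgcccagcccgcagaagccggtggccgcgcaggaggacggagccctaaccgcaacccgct
DUSP16, 1.85-fold higher with p53, chr12:12562814-12563113, minus strand: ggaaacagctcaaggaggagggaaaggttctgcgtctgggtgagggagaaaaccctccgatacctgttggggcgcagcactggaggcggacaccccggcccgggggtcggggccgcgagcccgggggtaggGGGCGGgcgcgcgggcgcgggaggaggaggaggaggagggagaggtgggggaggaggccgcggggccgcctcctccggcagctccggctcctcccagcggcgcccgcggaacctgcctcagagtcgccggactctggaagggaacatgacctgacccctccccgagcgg
DUSP1, 1.76-fold higher with p53, chr5:172771146-172771445, minus strand: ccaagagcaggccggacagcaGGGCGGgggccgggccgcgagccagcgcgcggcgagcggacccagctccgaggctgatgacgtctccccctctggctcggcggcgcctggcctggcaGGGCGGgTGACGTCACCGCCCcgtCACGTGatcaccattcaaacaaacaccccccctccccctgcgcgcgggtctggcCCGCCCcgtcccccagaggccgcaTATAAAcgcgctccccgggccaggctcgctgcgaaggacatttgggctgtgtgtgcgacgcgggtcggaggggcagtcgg
DUSP6, lower with p53, chr12:89352452-89352751, minus strand: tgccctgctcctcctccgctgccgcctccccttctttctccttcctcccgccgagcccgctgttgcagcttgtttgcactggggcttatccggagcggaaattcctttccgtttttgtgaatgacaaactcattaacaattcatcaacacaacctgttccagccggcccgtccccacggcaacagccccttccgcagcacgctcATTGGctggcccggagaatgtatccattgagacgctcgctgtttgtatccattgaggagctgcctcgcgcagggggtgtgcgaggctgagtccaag

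The share of G and C was 81.0% in the DUSP14 window, 73.3% in each of DUSP16 and DUSP1 and 58.3% in DUSP6, against a median of 58.7% over all 35116 windows. GC-rich windows, though less so than that of DUSP14, were also held by DUSP7 (78%), which differed little, and by DUSP8 (78.3%) and DUSP2 (75%). The values of DUSP8 and DUSP2 were equal in both arrays, which was not read as a lack of change. A relation between this share and the differences was not tested. The GC box, which 45.0% of all windows hold, was found in 8 of 9 member windows: 5 times in DUSP14, 4 times in each of DUSP1 and DUSP8, 3 times in each of DUSP2 and DUSP7, and once in DUSP16. DUSP10 has 2 windows, with 3 GC boxes in one and 1 in the other. The DUSP6 window held no GC box and 1 CCAAT box, a motif found in 34.6% of all windows and also in windows of DUSP7, DUSP8 and DUSP10. DUSP1 also held a CRE (1.85% of all windows), an E-box (7.26%) and a TATA box (11.5%). Windows were at hand for 8 of the 10 members. DUSP8, equal in both arrays, held 2 CREs. The AP-1 site, held by 7.71% of all windows, was found in no member window. The p53 half-site, held by 6.63%, was found in DUSP7 only, whose levels differed by -0.09. These matches describe letters in short windows and are not binding sites.

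The inducible nuclear phosphatases DUSP1, DUSP2, DUSP4 and DUSP5 are immediate early or early response genes. DUSP1 encodes MKP-1, which acts on JNK and p38 as well as ERK and is induced by stress and growth factors. It read 10.85 with p53 and 10.03 in control cells, a difference of 0.82 or 1.76-fold higher. Of the kept genes, 1181 (10.3%) were at least as high, and 23.6% of genes of like level differed by as much in either direction. DUSP5, the ERK-specific nuclear phosphatase, read 10.13 with p53 and 9.96 in control cells, a difference of 0.17. Of the genes of like level, 74.1% differed by at least that much, so DUSP5 was among the genes that differed little.

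A near copy of DUSP5, the pseudogene DUSP5P1, has 2 probe sets of its own and was looked up after its values were seen. The first read 6.91 with p53 and 8.03 in control cells (-1.13), and the second at 7.37 with p53 and 8.20 in control cells (-0.83). Both were lower with p53, whereas the DUSP5 probe set was slightly higher. How far the probes of the gene and of the pseudogene read each other's transcripts was not tested, so the DUSP5 level is uncertain to that extent.

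DUSP2 (PAC-1), a nuclear phosphatase best known from activated lymphocytes, was listed at 7.11 with p53 and 7.11 in control cells. DUSP4 encodes MKP-2, the nuclear paralogue of MKP-1, and was listed at 6.16 with p53 and 6.16 in control cells. Both were below the filter level of 7.38, and neither value shows that the gene was silent or unchanged.

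The phosphatases with a preference for JNK and p38 are DUSP8, DUSP10 (MKP-5) and DUSP16 (MKP-7). DUSP16 read 9.36 with p53 and 8.47 in control cells, a difference of 0.89 or 1.85-fold higher. Of the kept genes, 1090 (9.53%) were at least as high, and 18.4% of genes of like level differed by as much. DUSP8 was listed at 8.53 with p53 and 8.53 in control cells, and DUSP10 at 7.84 with p53 and 7.84 in control cells. DUSP16 was therefore the 1 gene of the JNK and p38 class with a measured difference.

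The 4 members with equal values agree to every deposited digit. Exact equality held for 35.9% of all probe sets and for 14.6% of kept genes, and it was more frequent in dim genes. Within 0.5 of the level of each member, it held for 69.5% of genes at DUSP4, 52.0% at DUSP2, 31.6% at DUSP10 and 15.3% at DUSP8, against 4.14% at DUSP7, the brightest neighbourhood. Separate hybridisations rarely give identical digits, and how these values arose is not stated in the labels. A difference of 0.00 in DUSP2, DUSP4, DUSP8 and DUSP10 was therefore not read as a measured lack of change.

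**Figure D2:**
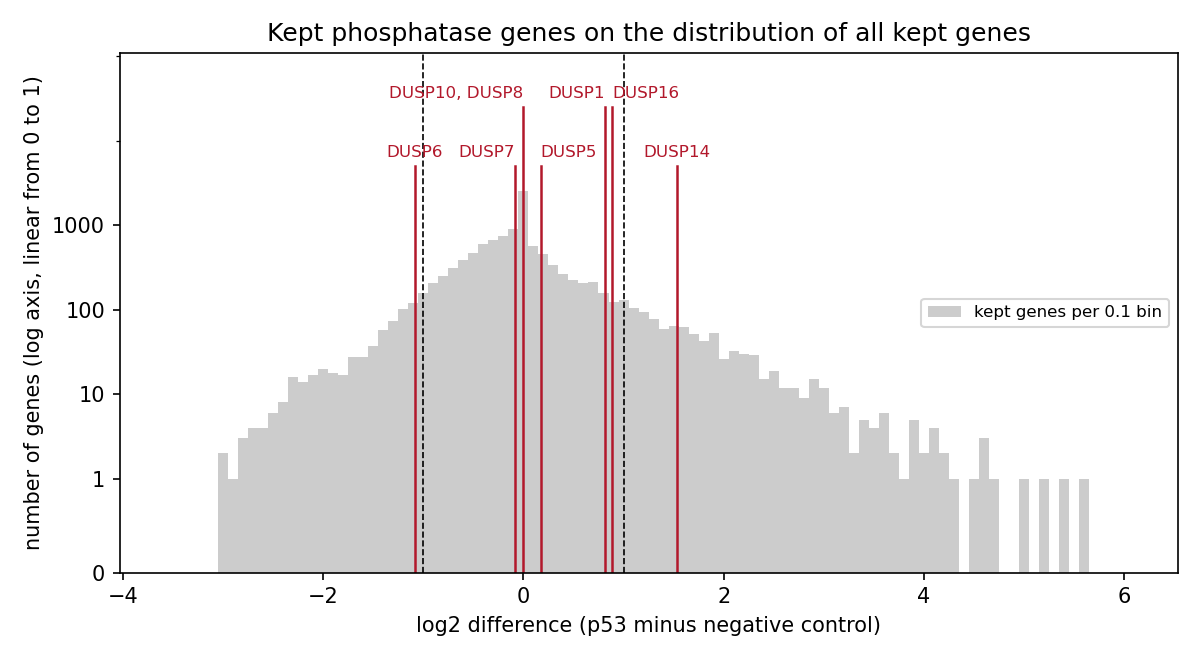
Number of kept genes (vertical axis, logarithmic above 1) in bins of 0.1 of the log2 difference, p53 minus negative control, with the 8 kept phosphatase genes as red lines and the 2-fold limits dashed. DUSP14 (1.53) and DUSP6 (-1.08) lie outside the limits, DUSP16 (0.89) and DUSP1 (0.82) just inside the upper one, and DUSP8 and DUSP10 in the peak of equal values at 0.

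The other genes of the MAP kinase cascade were taken from 11 lists with 135 measured genes. Of these, 20 (14.8%) were at least 2-fold higher with p53, against 5.22% of all 18417 genes, and 9 (6.67%) were at least 2-fold lower, against 3.7%. The lists hold more bright genes than the array as a whole, with 112 of the 135 kept against 11436 of 18417. Among the 112 kept, 17.9% were higher, against 8.21% of all kept genes, and 8.04% were lower, against 5.79%. At 1.5-fold 22 of the 112 were higher and 20 lower, against 14.4% and 15.5% of all kept genes. Of the 20 higher genes, 6 reached the filter level in the p53 array alone (MRAS, SPRY1, SPRY3, MAP3K13, RASGRP1 and RASGRF2), and of the 9 lower genes MAP3K20 reached it in the control array alone. The median of the 135 was 0.00, with 26 equal in both arrays.

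Among 18 other dual specificity phosphatases and pseudophosphatases, 1 was called higher, 1 was called lower and 6 were equal, with a median of 0.00. Of the 18, 16 were kept, and of all kept genes 8.21% were higher and 5.79% lower. DUSP22, an atypical phosphatase linked to JNK signalling, read 10.43 with p53 and 8.98 in control cells, a difference of 1.45 close to that of DUSP14. STYX, a catalytically dead relative that binds ERK, read 9.37 with p53 and 10.58 in control cells (-1.21). DUSP9, the third cytoplasmic ERK phosphatase beside DUSP6 and DUSP7, had a difference of -0.15. Of 5 phosphatases of other families that act on MAP kinases or their activators, PPM1A was called higher, at 9.55 with p53 and 8.12 in control cells, and PPM1B read -0.65. The tyrosine phosphatase genes PTPN5, PTPN7 and PTPRR lay below the filter with identical values.

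The MAP kinases are the substrates of these phosphatases. None of 12 measured MAP kinase genes was called in either direction, and their differences ran from -0.60 (MAPK7, which encodes ERK5) to 0.49 (MAPK11, which encodes p38 beta), with a median of -0.04. MAPK3, which encodes ERK1, read 9.76 with p53 and 10.03 in control cells, and MAPK8, which encodes JNK1, at 9.24 with p53 and 9.81 in control cells. Of 6 MAP2 kinase genes, MAP2K4, an activator of JNK and p38, was called higher, at 10.31 with p53 and 9.15 in control cells. Of all kept genes 8.21% were called higher and 5.79% lower. MAP2K3, an activator of p38, lay just below the limit at 0.99, and at 1.08 with the intensity trend removed by lowess.

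Of 23 MAP3 kinase genes, 19 were kept. Among them 2 were called higher and 2 lower, against 8.21% and 5.79% of all kept genes, and the list median was 0.00. MAP3K12 (1.71), which encodes the JNK pathway kinase DLK, and its relative MAP3K13 (1.16) were the higher ones. MAP3K5 (-1.29), which encodes the stress kinase ASK1, and MAP3K20 (-1.22), which encodes the ribotoxic stress kinase ZAK, were the lower ones. MAP3K13 read 8.19 with p53 and 7.04 in control cells, the control value being below the filter, and its difference was 0.99 with 32 added before log2. Of 20 genes of RAS and its regulators, 16 were kept. In this list 4 were called higher and none lower, against the same shares of all kept genes, with a median of 0.00. MRAS, a RAS-related GTPase, read 9.84 with p53 and 7.34 in control cells (2.49), and HRAS at 11.16 with p53 and 9.23 in control cells (1.93). The exchange factor gene RASGRF2 read 7.50 with p53 and 6.03 in control cells (1.47). RASGRP1, of the same function, read 7.42 with p53 and 6.40 in control cells (1.01), and its difference was 0.80 with 32 added before log2. MRAS, RASGRF2 and RASGRP1 were below the filter in control cells.

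**Figure D3:**
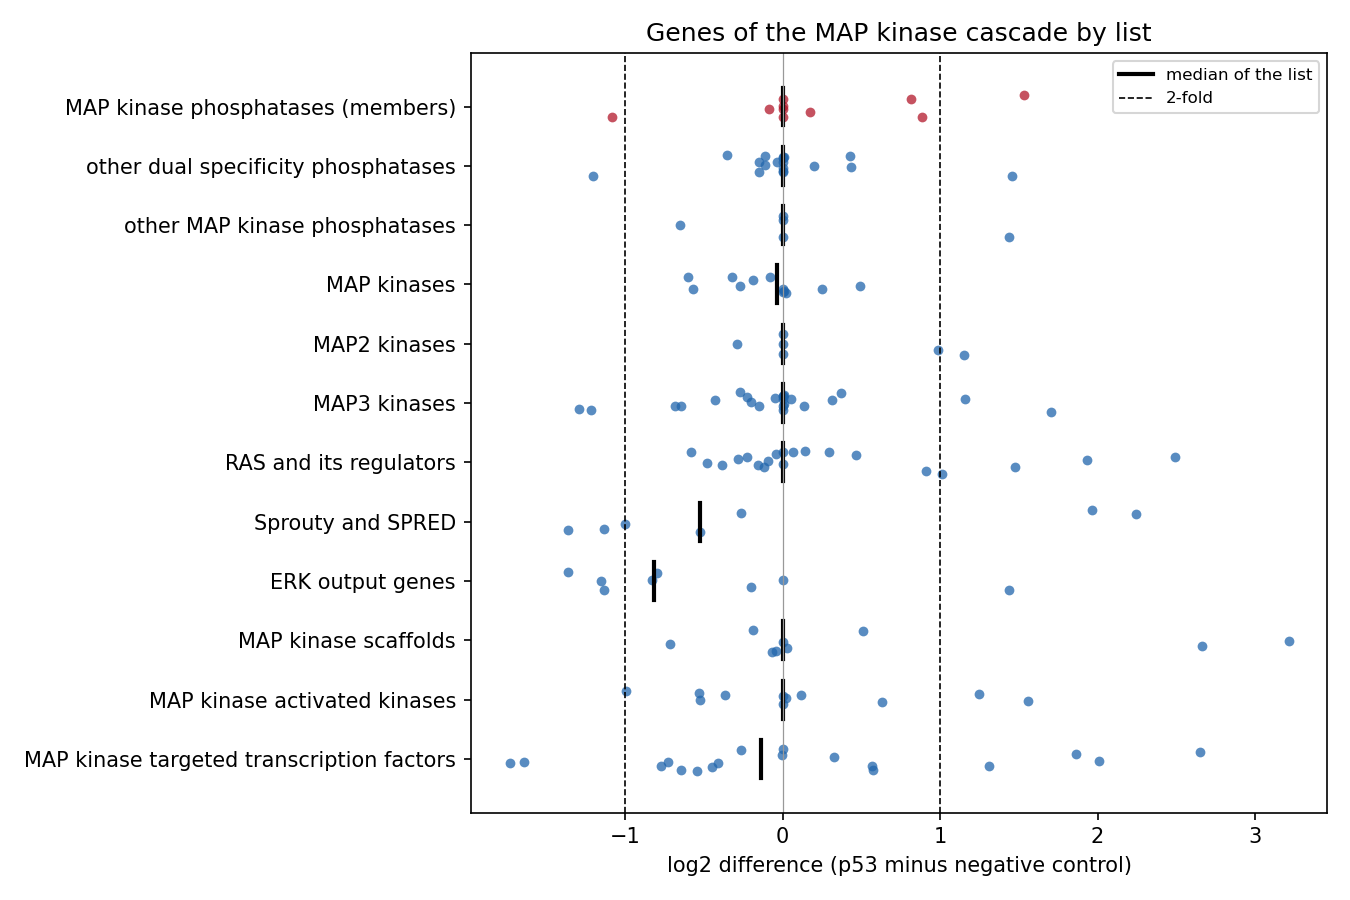
Log2 difference, p53 minus negative control, of the 10 phosphatase genes (red) and of the measured genes of the 11 cascade lists (blue). Each row has 1 point per gene, with list medians as black bars and the 2-fold limits dashed. Vertical scatter within a row carries no value. SPRY2 and SPRY4 are in both the Sprouty and SPRED list and the ERK output list and are drawn in each, so these 2 medians are not independent. The 12 MAP kinase genes stay within the limits, and the Sprouty and SPRED list (median -0.52) and the ERK output list (median -0.82) have the lowest medians while holding genes on both sides.

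DUSP6 belongs to a group of feedback inhibitors and output genes that ERK activity is known to induce. Sprouty and SPRED proteins restrain RAS and RAF signalling. Of 7 such genes, all of them kept, 3 were called lower, against 5.79% of all kept genes, and 2 were called higher, against 8.21%. Their median was -0.52. SPRY4 read 8.78 with p53 and 10.14 in control cells (-1.36), and SPRY2 at 8.68 with p53 and 9.82 in control cells (-1.14). SPRED1 read 8.67 with p53 and 9.67 in control cells, 2.002-fold lower and so on the limit, and was less than 2-fold lower with the lowess trend removed, after quantile normalization and with 32 added before log2, with -0.92 as the smallest difference. SPRY1, in contrast, read 9.33 with p53 and 7.37 in control cells (1.96), and SPRY3 at 8.86 with p53 and 6.61 in control cells (2.25). The Sprouty genes thus went in both directions, and the 2 higher ones were below the filter level in control cells.

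Of the 8 genes of a known MAP kinase activity signature that are not phosphatases, 7 were kept. Against shares of 5.79% lower and 8.21% higher among all kept genes, 3 were called lower and 1 higher. The median of the 8 was -0.82. The lower ones were SPRY4, SPRY2 and the ETS transcription factor gene ETV5, which read 8.78 with p53 and 9.94 in control cells (-1.15). PHLDA1 (-0.83) and CCND1 (-0.80), which encodes cyclin D1, were lower by less than 2-fold, and ETV4 had a difference of -0.20. The receptor tyrosine kinase gene EPHA2 went the other way, at 12.03 with p53 and 10.59 in control cells (1.43). EPHA4, another of the 8, lay below the filter with identical values. So did DUSP4, which belongs to the same signature as DUSP6, and neither was read as unchanged.

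**Figure D4:**
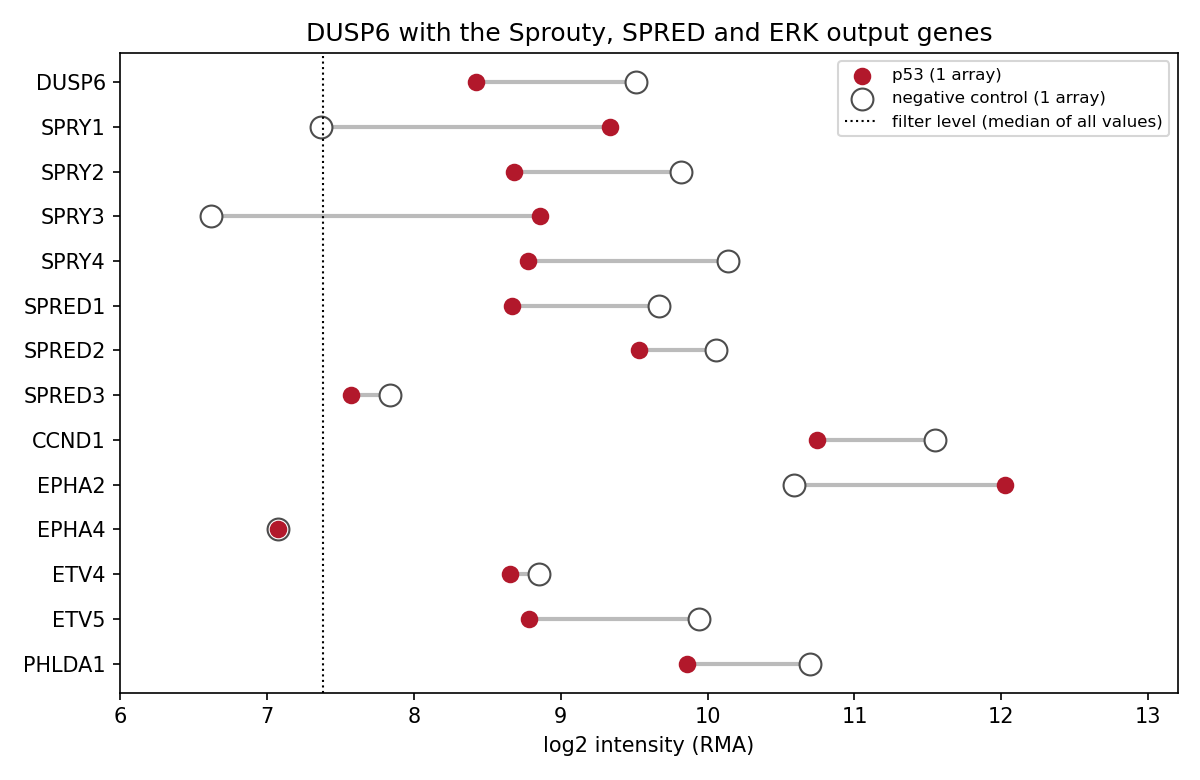
Log2 intensity (horizontal axis) of DUSP6 and of the Sprouty, SPRED and ERK output genes with p53 (filled red) and in the negative control (open), 1 array each. DUSP6, SPRY2, SPRY4, SPRED1 and ETV5 lie lower with p53 by up to 1.36, whereas SPRY1, SPRY3 and EPHA2 lie higher.

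The transcription factor genes downstream of MAP kinases included members of the immediate early class, to which DUSP1 also belongs. Of 18 measured, 17 of them kept, 4 were called higher and 2 lower, with a median of -0.14. Of all kept genes 8.21% were higher and 5.79% lower. EGR1 read 12.04 with p53 and 9.39 in control cells (2.65), JUNB at 11.27 with p53 and 9.26 in control cells (2.01), and FOS at 8.87 with p53 and 7.56 in control cells (1.31). Other genes of the class were not called, among them JUN (-0.73), FOSL1 (-0.27), JUND (-0.0036), FOSB (0.32) and ATF3 (0.58). The class thus held called and uncalled genes. FOSB and ATF3 were below the filter level in control cells. EGR3 was below it in both arrays with identical values, which were not read as a lack of change. DUSP1, at 0.82, was not called either. MEF2A (1.87), which encodes a substrate of p38 and ERK5, was the remaining higher one, and MYC (-1.65) and MEF2C (-1.74) were the lower ones.

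Among 9 scaffolds of MAP kinase modules, 7 of them kept, 2 were called higher and none lower, with a median of 0.00. Of all kept genes 8.21% were higher and 5.79% lower. ARRB1, which encodes beta-arrestin 1, read 11.56 with p53 and 8.35 in control cells (3.21), and KSR1, the scaffold of RAF, MEK and ERK, at 10.22 with p53 and 7.56 in control cells (2.66). Of 11 kinases activated by MAP kinases, RPS6KA1 (1.56), which encodes RSK1, and MKNK2 (1.25), which encodes the eIF4E kinase MNK2, were called higher and none was called lower, with a median of 0.00. Only transcripts were measured, so none of these values gives the phosphorylation or activity of a MAP kinase. Since each gene has a single difference from 2 arrays, no gene could be ranked by the likeness of its pattern to that of a phosphatase.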

How the data were processed

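RNA came from 2 H1299 samples, 1 with p53 and 1 negative control. Per the labels' protocols, Trizol was used for extraction and a standard biotin labelling preceded the Affymetrix arrays. The authors deposited log2 intensities per probe set made with RMA, per the submitters' processing notes. The log2 scale was read from the values (1.41 to 14.68). The 2 sorted columns differ by at most 0.192, so a global shift of RNA would not be visible. Which software and build were used is not stated there.

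Probe sets were named through the platform annotation: 19460 of 33297 had 1 symbol, 1754 several and 12083 none, and those of the last 2 kinds were not used. Symbols were updated through the gene identifier. For genes with several probe sets the brightest was taken. A 2-fold difference was called. Named genes were every member, and every called and kept gene of the 11 lists, with at most 6 per list; other names are values within or just outside those lists. The members, the lists and the rules were chosen with earlier results of these data known. The calling step was tested only on simulated data with little noise, where bright genes were shifted well past the limit. That checks the code and does not bear on how reliable the calls from these arrays are. Precision is limited by the number of arrays, 1 per group. Promoter windows came from RefSeq (GRCh38.p14). Python 3.11.15, numpy 2.4.6, pandas 2.3.3, statsmodels 0.14.6 and matplotlib 3.10.9 were used. Alternatives were no filter on dim genes, a filter at the 75th percentile (9.01) or on the mean of both arrays, limits of 1.5-fold and 3-fold, centring on the median, removal of a lowess trend (span 0.3), the mean over probe sets, counting every probe set, quantile normalization, 32 added to the linear intensity before log2, and levels raised to the 25th percentile (5.97).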

Additional observations from a re-analysis of the deposited data

How the results depend on the processing

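No paired analysis was possible because each group holds 1 array. Only the size limit changed the member calls: at 1.5-fold 3 members were higher, and at 3-fold 0 were higher and 0 lower. Among kept genes 1642 were higher and 1777 lower at 1.5-fold, against 450 higher and 175 lower at 3-fold. Of the 112 kept wider MAP kinase genes, 22 were higher and 20 lower at 1.5-fold, against 14.4% and 15.5% of all kept genes. At 3-fold 10 were higher and 2 lower, so the balance of higher and lower genes depended on the size limit. Under the other 10 alternatives the member counts were 1 and 1, and the wider counts lay between 15 (filter at the 75th percentile) and 22 (lowess trend removed) higher and between 8 and 9 lower. RAS and its regulators had 2 higher genes, not 4, with the filter on the mean of both arrays or at the 75th percentile. The median of the members lay between 0.00 and 0.04, where the 4 equal members hold it, so it says nothing about stability. Under those alternatives DUSP14 lay between 1.44 and 1.61, DUSP6 between -1.08 and -1.01, DUSP16 between 0.83 and 0.96 and DUSP1 between 0.80 and 0.92.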
